A study of Homo sapiens with 6 samples.

Results

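The enzymes described here keep cellular thiols reduced and remove peroxides, superoxide and electrophiles. They comprise 40 genes of glutathione, thioredoxin and NADPH metabolism, taken by gene symbol from a fixed list, and each had exactly 1 row among the 38170 features of the deposited expression table. All 40 passed the filter on low counts that left 19620 features for testing. RNA came from A549 cells, a human lung carcinoma line, in 6 libraries. The 3 vector libraries came from cells given an empty vector, and the 3 LOC401312 libraries from cells made to overexpress LOC401312, a long non-coding RNA, by means of piggyBac, a transposon that inserts its cargo into the genome. All cells were grown in DMEM with fetal bovine serum and antibiotics, and no other agent or treatment was labelled. The labels do not say whether each group was a pool of cells or 1 clone, nor whether replicates were separate cultures. P-values thus rest on the spread among these libraries, and that spread may be technical.

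Glutathione is a tripeptide whose synthesis has glutamate-cysteine ligase as its rate-limiting enzyme. It is used by peroxidases and transferases and regenerated by a reductase that consumes NADPH. The thioredoxin circuit runs in parallel: thioredoxin reductase passes electrons from NADPH to thioredoxin, which in turn recycles the peroxiredoxins. The pentose phosphate pathway is a main source of cytosolic NADPH for both. Many of these genes are targets of NRF2, a transcription factor that binds antioxidant response elements and that is constitutively active in A549 cells because of a KEAP1 mutation.

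Because the response element is the sequence these genes are known to share, the RefSeq promoter windows of the members (GRCh38.p14, 250 bases before to 50 after each annotated start) were searched for its core, TGACNNNGC, on both strands. Of the 40 members, 32 had at least 1 window, 44 windows in all. The core was present in 10 of those 44 (22.7%), against 4687 of 35116 windows of all genes (13.3%). By gene, 9 of the 32 had a match. No share by gene was computed over all genes, and a gene with several windows has more chances of a match. The 13.3% of windows is thus no background for counts of genes. The 9 were 4 of the 11 members that fell (PGD, GCLM, GSTP1 and GPX2), 1 of the 2 that rose (TXNRD1), and 4 of the 19 that had a window and were not called (ME1, GSTO1, GSTA4 and MGST1). The stretches below show, for the members that fell, the core in capitals with 10 bases on each side, read 5′ to 3′ on the strand of the gene. A match in the other orientation reads GCNNNGTCA. In the GENCODE annotation, the stretches of GPX2, GSTP1 and GCLM overlap, wholly or in part, an exon of another transcript of the same gene.
GPX2, 122 bases before the start, chr14:64942849-64942877, minus strand: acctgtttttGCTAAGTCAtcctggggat
GCLM, 34 bases before the start, chr1:93909446-93909474, minus strand: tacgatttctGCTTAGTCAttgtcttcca
GSTP1, 66 bases before the start, chr11:67583736-67583764, plus strand: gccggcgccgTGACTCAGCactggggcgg
PGD, 201 bases before the start, chr1:10398853-10398881, plus strand: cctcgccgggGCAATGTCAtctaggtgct
For contrast, the same core stood in windows of ME1, which was not called, and of TXNRD1, which rose.
ME1, 137 bases before the start, chr6:83431170-83431198, minus strand: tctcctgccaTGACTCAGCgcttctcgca
TXNRD1, 99 bases before the start, chr12:104215670-104215698, plus strand: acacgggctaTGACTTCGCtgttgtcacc
GSTP1, which fell, and ME1, which was not called, carried the same 9 letters. The match is a description of letters in these windows, and the search says nothing of elements farther from the start.

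Library totals ran from 60971105 to 73994619 counts. The entry that holds LOC401312, annotated as STEAP1B (ENSG00000105889; chromosome 7, 22419444 to 22665502, minus strand), held 9, 11 and 23 counts in the vector libraries against 94628, 92527 and 90297 in the LOC401312 libraries (log2 change 12.57, SE 0.14, adjusted p = 1.63e-11). Replicates 2 and 3 of that group carry LOC401313 and LOC401314 in their genotype label, against their titles, and by this entry both matched replicate 1. The keratins KRT8 and KRT18, markers of the epithelial line, lay between 3186 and 5147 CPM (counts scaled to a common library size after TMM normalization) in every library, while the lung epithelial markers NKX2-1 and SFTPB were at 0.264 CPM or less. Of the 10 tested line markers 4 rose, 1 fell and 5 were not called. Over all features tested, 4.13% rose and 4.58% fell. Those that rose were CDH1 (0.48), KRT19 (0.26) and the low lung genes NAPSA (from 1.08 ± 0.0985 CPM in vector to 2.19 ± 0.18 in LOC401312 (SD, n = 3 per group)) and SFTPD (from 0.739 ± 0.163 CPM in vector to 1.83 ± 0.523 in LOC401312 (SD, n = 3 per group)), and the mucin MUC5AC fell (-1.08). Transcripts of other tissues set some libraries apart: vector replicate 1 held blood transcripts (HBB 653, 34 and 6 counts in the vector libraries against 18, 8 and 7 in the LOC401312 libraries), all vector libraries held the squamous and urothelial keratin KRT13 (338, 253 and 286 counts in the vector libraries against 5, 0 and 0 in the LOC401312 libraries), and LOC401312 replicates 2 and 3 held the placental hormone subunit CGA (24, 53 and 24 counts in the vector libraries against 25, 3645 and 3766 in the LOC401312 libraries). The 13 mitochondrially encoded mRNAs, a list on RNA quality, summed to 80183 to 83873 CPM in vector and 76514 to 78288 in LOC401312. The part of these differences in the results below was not tested.

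With LOC401312, the redox enzymes did not move as 1 block. Of the 40, 11 fell, 2 rose and 27 did not pass an adjusted p of 0.05 in edgeR's quasi-likelihood test. Of all 19620 features, 8.72% were called in either direction, 4.58% lower and 4.13% higher. Falls thus made up 27.5% of the members. Among the 9884 features with a mean of at least 10 CPM, an abundance most members exceed, 7.71% were called lower and 5.83% higher. The median log2 change of the 40 was -0.05, against 0.00 over all features tested. In all, 27 members had a negative change and 13 a positive one. Apart from GPX2 and TXNIP, the falls were small, between -0.31 and -0.22. The groups did not overlap for 13 members that were lower in LOC401312 and 5 that were higher, against 13.9% and 14% of all features.

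The count of falls depended on the libraries used. It was 12, with 2 rises, without vector replicate 1, and 8, with 1 rise, without vector replicate 1 and LOC401312 replicates 2 and 3 together. Without LOC401312 replicates 2 and 3 alone, 1 fall and 1 rise were called. These last 2 settings leave a single LOC401312 library, which is assumed to vary like the vector libraries. In the deposited FPKM values (fragments per kilobase per library size unit, scaled by the authors), the median gene with a mean of at least 5 FPKM was shifted upward by 0.109. There limma called 1 member lower and 7 higher, and after each library was centred on its own median log2 FPKM over those genes, 8 lower and 1 higher. All 13 called members had the same direction in each alternative setting in which they were fitted.

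**Figure D1:**
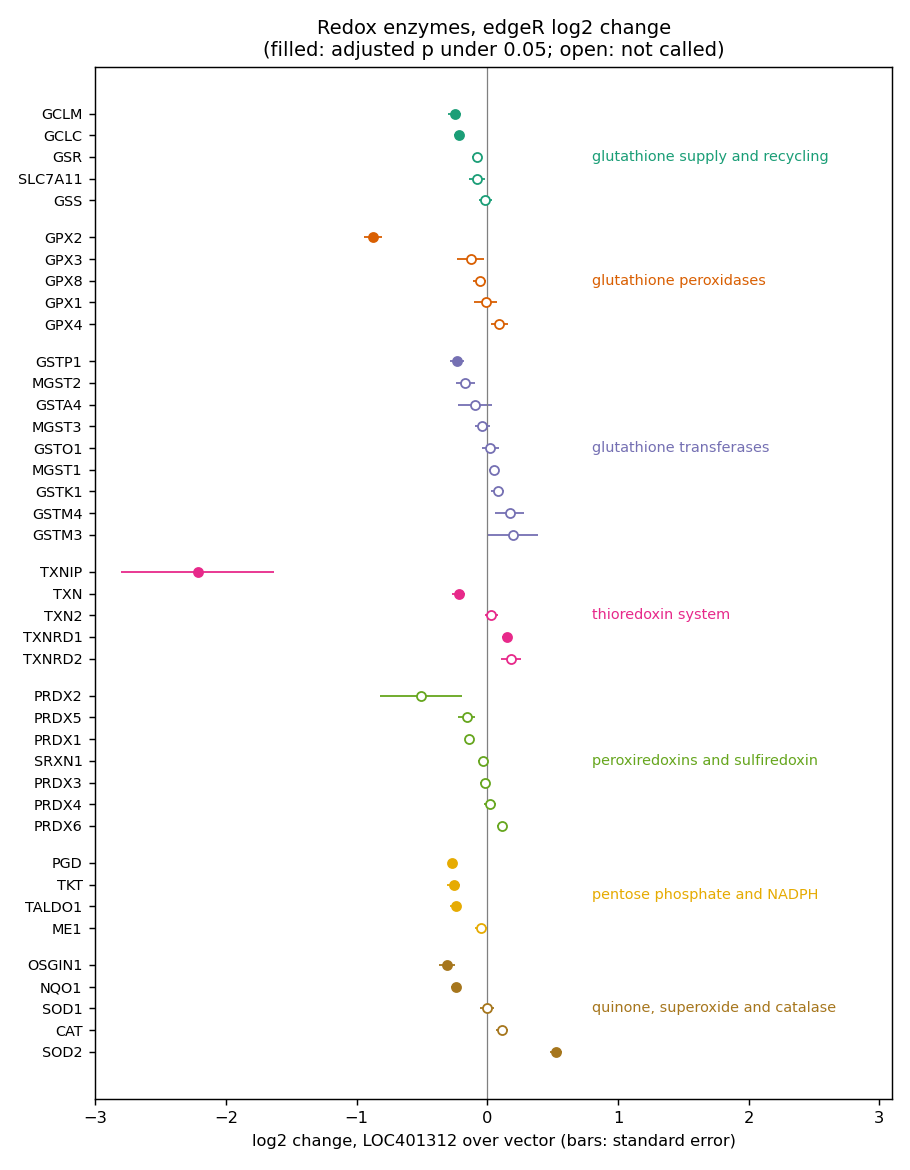
Log2 change of each of the 40 members (x axis, LOC401312 over vector, with standard error) by functional group (colour); filled points passed an adjusted p of 0.05. GPX2 (-0.88) and TXNIP (-2.22) lie far to the left, SOD2 (0.53) to the right, and the other falls between -0.31 and -0.22.

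Per transcript length, the members spanned a wide range. The most abundant was TXN, cytosolic thioredoxin, at 562 ± 12.4 FPKM in vector. It was followed by the quinone reductase NQO1 at 441 ± 1.67 FPKM in vector, the peroxiredoxin PRDX1 at 395 ± 4.13 FPKM in vector and PGD, 6-phosphogluconate dehydrogenase, at 368 ± 7.83 FPKM in vector. At the other end lay TXNIP (0.87 ± 0.77 FPKM in vector), GSTM3 (0.77 ± 0.111 FPKM in vector), PRDX2 (1.07 ± 0.554 FPKM in vector) and GSTM4 (1.11 ± 0.0929 FPKM in vector). Members that fell were found at both ends of this order.

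**Figure D2:**
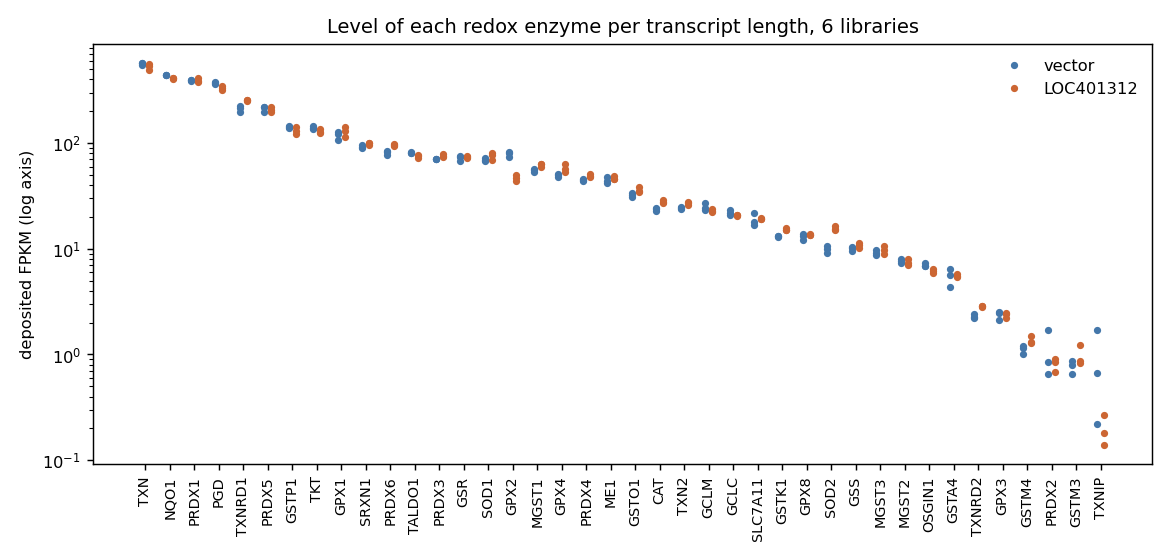
Deposited FPKM (log axis) of each member in the 3 vector and 3 LOC401312 libraries, ordered by mean level. Levels run from TXN and NQO1 at the left to GSTM3 and TXNIP at the right; the libraries lie close together for abundant members and spread widely for TXNIP.

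The pentose phosphate enzymes moved together. All 3 members of the pathway fell, by nearly the same amount: PGD, which makes NADPH in the oxidative part, and the transaldolase TALDO1 and transketolase TKT of the non-oxidative part. PGD (ENSG00000142657; chromosome 1, 10398592 to 10419808, plus strand) stood at 1486, 1571 and 1529 CPM in the vector libraries and 1301, 1277 and 1230.4 CPM in the LOC401312 libraries. Its log2 change was -0.27 (SE 0.04, adjusted p = 0.00143), a 0.83-fold level. TKT (ENSG00000163931; chromosome 3, 53224712 to 53256052, minus strand) stood at 1547, 1766 and 1682 CPM in the vector libraries and 1439.7, 1381 and 1356 CPM in the LOC401312 libraries, a change of -0.26 (SE 0.05, adjusted p = 0.00867). TALDO1 (ENSG00000177156; chromosome 11, 747415 to 765012, plus strand) stood at 278, 306 and 297 CPM in the vector libraries and 251, 253 and 241 CPM in the LOC401312 libraries, a change of -0.24 (SE 0.04, adjusted p = 0.00834). For each of the 3 enzymes every LOC401312 library lay below every vector library, and the calls held on leaving out any single library (adjusted p up to 0.012, 0.0498 and 0.0484).

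Ratios within the pathway overlapped between groups. The ratio of PGD to TKT in deposited FPKM, which does not depend on library scaling, was 2.62 ± 0.104 in vector and 2.6 ± 0.0312 in LOC401312 (SD, n = 3 each; exact two-sided permutation p = 0.8). That of PGD to TALDO1 was 4.54 ± 0.099 and 4.46 ± 0.0662 (exact p = 0.4). ME1, the cytosolic malic enzyme and another source of NADPH, stood at 188, 178 and 186 CPM in the vector libraries and 170.2, 177 and 188 CPM in the LOC401312 libraries. Its groups overlapped, and its change was -0.05 (SE 0.05, adjusted p = 0.631).

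The other NADPH genes of a wider list pointed both ways. Of 18 tested genes of the pentose phosphate pathway and of NADPH supply, 6 fell, 3 rose and 9 were not called, with a median of -0.04. Over all features tested, 4.58% fell and 4.13% rose. The cytosolic isocitrate dehydrogenase IDH1 fell from 382 ± 2.16 CPM in vector to 287 ± 6.52 in LOC401312 (SD, n = 3 per group), a change of -0.41 (SE 0.04, adjusted p = 0.000114), while its mitochondrial counterpart IDH2 rose from 36.6 ± 0.366 CPM in vector to 50.8 ± 2.27 in LOC401312 (SD, n = 3 per group), a change of 0.47 (SE 0.05, adjusted p = 0.000469). RPE, the ribulose-5-phosphate epimerase, fell by 0.37 (SE 0.04, adjusted p = 0.000499). IDH1 and RPE lie on chromosome 2, where the median over 1285 tested features was -0.23. With each chromosome's median removed, IDH1 was at -0.18 (adjusted p = 0.0123) and RPE at -0.14 (0.078). None of the 40 members lies on chromosome 2, and PGD, TKT and TALDO1 were at -0.26, -0.27 and -0.24 in that fit, each still called.

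In glutathione synthesis, the fall was seen in the rate-limiting enzyme. GCLC and GCLM encode the catalytic and modifier subunits of glutamate-cysteine ligase. GCLC (ENSG00000001084; chromosome 6, 53497341 to 53616970, minus strand) stood at 238, 239 and 232 CPM in the vector libraries and 201, 205 and 204 CPM in the LOC401312 libraries, a change of -0.22 (SE 0.04, adjusted p = 0.00489). GCLM (ENSG00000023909; chromosome 1, 93885199 to 93909456, minus strand) stood at 175, 167 and 162 CPM in the vector libraries and 135, 141 and 148 CPM in the LOC401312 libraries, a change of -0.25 (SE 0.05, adjusted p = 0.0102). The groups did not overlap for either subunit, and the ratio of GCLC to GCLM in FPKM was 0.885 ± 0.0251 in vector and 0.905 ± 0.034 in LOC401312 (SD, n = 3 each; exact two-sided permutation p = 0.5). GCLM lost its call without LOC401312 replicate 2 (adjusted p = 0.0584).

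The steps before and after the ligase did not pass the test. SLC7A11, the cystine importer that supplies the ligase with cysteine, stood at 249, 205 and 219 CPM in the vector libraries and 209, 211 and 218 CPM in the LOC401312 libraries, with overlapping groups and a change of -0.08 (SE 0.06, adjusted p = 0.532). GSS, glutathione synthetase, which completes the tripeptide, was at -0.01 (SE 0.05, adjusted p = 0.908). GSR, the reductase that regenerates glutathione, was at -0.08 (SE 0.04, adjusted p = 0.266), with groups that did not overlap.

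Among the glutathione peroxidases, GPX2 alone was called. GPX2 (ENSG00000176153; chromosome 14, 64939152 to 64942905, minus strand), a selenoprotein best known from the gastrointestinal epithelium, stood at 132, 159 and 153 CPM in the vector libraries and 84.3, 81.3 and 76.3 CPM in the LOC401312 libraries. Every LOC401312 library was thus well below every vector library. The change was -0.88 (SE 0.07, adjusted p = 7.11e-05), a 0.545-fold level, and the call held on leaving out any library (adjusted p up to 0.00136). It was also the member called lower in the deposited FPKM values.

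GPX1, the ubiquitous cytosolic peroxidase, stood at 151, 191 and 184 CPM in the vector libraries and 189.6, 176 and 156 CPM in the LOC401312 libraries, with groups that overlapped widely (-0.01, SE 0.09, adjusted p = 0.956). The ratio of GPX2 to GPX1 in FPKM was 0.667 ± 0.0195 in vector and 0.367 ± 0.0174 in LOC401312 (SD, n = 3 each), a difference of -0.86 on the log2 scale. The exact two-sided permutation p was 0.1, the smallest that 20 arrangements of 3 against 3 allow, and 0.225 adjusted over the 9 ratios computed. GPX4, which reduces lipid hydroperoxides, had a change of 0.09 (adjusted p = 0.442), the secreted GPX3 of -0.13 (0.545), and GPX8, of the endoplasmic reticulum, of -0.06 (0.563). Of 18 other tested selenoproteins and factors of their synthesis, none fell and 1 rose, the deiodinase DIO2 (from 9.47 ± 0.462 CPM in vector to 19.4 ± 1.45 in LOC401312 (SD, n = 3 per group); 1.03, SE 0.09, adjusted p = 0.00012). The shares over all features tested were 4.58% lower and 4.13% higher.

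Of 9 glutathione transferases, which conjugate glutathione to electrophiles, 1 fell and 8 were not called. GSTP1 (ENSG00000084207; chromosome 11, 67583742 to 67586656, plus strand), the most abundant of them per length at 142 ± 2.07 FPKM in vector, stood at 294, 324 and 318 CPM in the vector libraries and 285, 263 and 250.3 CPM in the LOC401312 libraries. The groups did not overlap, and the change was -0.23 (SE 0.05, adjusted p = 0.0276). That call was lost on leaving out vector replicate 2 or 3 or LOC401312 replicate 2 or 3 (adjusted p up to 0.115).

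The 8 transferases that were not called ranged from -0.17 for the microsomal MGST2, whose groups did not overlap but which shares its locus with MAML3 on the opposite strand, to 0.20 for GSTM3. The microsomal enzyme MGST1, at 511 ± 11.7 CPM in vector, was at 0.05 (SE 0.04, adjusted p = 0.512). MGST3, GSTO1, GSTK1, GSTA4 and GSTM4 were at -0.04, 0.02, 0.08, -0.09 and 0.17, with adjusted p of 0.395 or more. Genes of the GSTM cluster resemble one another in sequence, so their own counts are uncertain. GSTM4 also overlaps the GSTM2 entry on the same strand, whose counts came to 35.8% of its own.

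The wider glutathione list, 24 tested genes that are no members, held 3 falls and no rise, with a median of -0.05. Over all features tested, 4.58% fell and 4.13% rose. LANCL1, a glutathione-binding protein (-0.32, SE 0.05, adjusted p = 0.00327), and CHAC2, which degrades glutathione (-0.52, SE 0.10, adjusted p = 0.00994), lie on chromosome 2. With chromosome medians removed they were at -0.09 (adjusted p = 0.336) and -0.29 (0.126). GSTM1 had few counts, 62, 198 and 50 counts in the vector libraries against 27, 14 and 18 in the LOC401312 libraries, highest in vector replicate 2, with a change of -2.52 (SE 0.58, adjusted p = 0.0249). CHAC2 lost its call without vector replicate 3 or LOC401312 replicate 2 (adjusted p up to 0.0569), and GSTM1 on omitting vector replicate 2 or any of the LOC401312 libraries (0.107 at most).

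**Figure D3:**
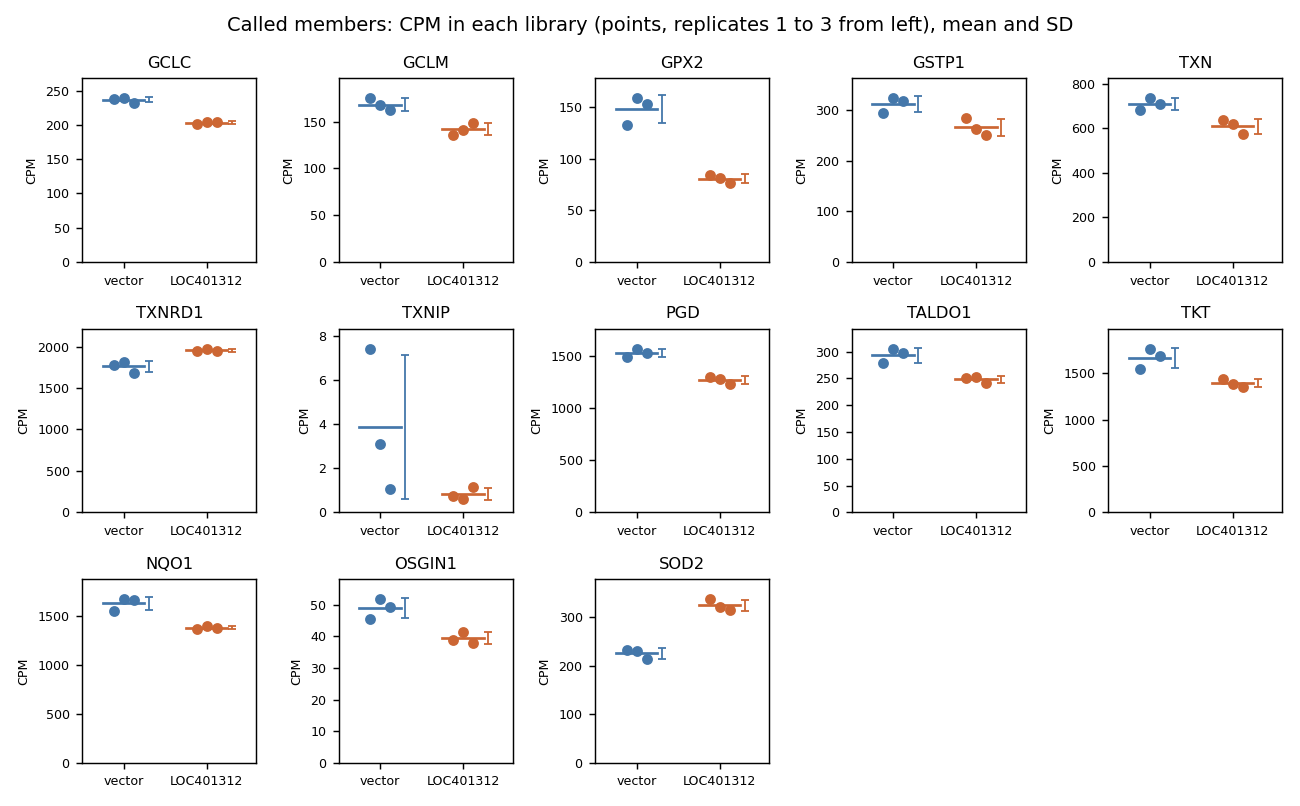
CPM of the 13 called members in each library (points, replicates 1 to 3 from left in each group), with the group mean (line) and SD (bar); every axis starts at 0. The groups are apart in 12 panels and overlap for TXNIP, where vector replicate 1 is the highest.

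In the thioredoxin system, the carrier and its reductase moved in opposite directions. TXN, the thioredoxin of the cytosol (ENSG00000136810; chromosome 9, 110243810 to 110256507, minus strand), stood at 683, 735 and 708 CPM in the vector libraries and 636, 618 and 572 CPM in the LOC401312 libraries, a fall of 0.22 (SE 0.05, adjusted p = 0.0157). TXNRD1, the selenoprotein that reduces it (ENSG00000198431; chromosome 12, 104215779 to 104350307, plus strand), stood at 1784, 1819 and 1684 CPM in the vector libraries and 1947, 1977 and 1947 CPM in the LOC401312 libraries, a rise of 0.15 (SE 0.04, adjusted p = 0.0252). The groups did not overlap for either gene. The ratio of TXN to TXNRD1 in FPKM, chosen after the values were seen, was 2.67 ± 0.124 in vector and 2.07 ± 0.11 in LOC401312 (SD, n = 3 each; exact two-sided permutation p = 0.1, adjusted p = 0.225).

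Both calls were lost with chromosome medians removed and on leaving out single libraries. TXN lies on chromosome 9, with a median of -0.08 over its tested features, and TXNRD1 on chromosome 12, with a median of 0.13. With chromosome medians removed, TXN was at -0.13 (adjusted p = 0.0971) and TXNRD1 at 0.03 (0.632). TXN lost its call without vector replicate 2 or 3 or LOC401312 replicate 2 or 3 (adjusted p up to 0.0666), and TXNRD1 on omitting vector replicate 3 or any of the LOC401312 libraries (0.111 at most).

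The mitochondrial pair was not called. TXN2, mitochondrial thioredoxin, was at 0.03 (SE 0.05, adjusted p = 0.804) and its reductase TXNRD2 at 0.18 (SE 0.08, adjusted p = 0.188), the groups of the latter not overlapping. The ratio of TXN to TXN2 in FPKM was 23.4 ± 0.208 in vector and 19.7 ± 1.21 in LOC401312 (SD, n = 3 each; exact two-sided permutation p = 0.1), and that of TXNRD1 to TXNRD2 was 91.7 ± 8.45 and 89.4 ± 0.488 (exact p = 1).

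TXNIP, which binds and inhibits thioredoxin, had the largest log2 change of the members and the least even values. TXNIP (ENSG00000265972; chromosome 1, 145992435 to 145996579, minus strand) held 551, 185 and 64 counts in the vector libraries against 53, 40 and 77 in the LOC401312 libraries, or 7.42, 3.09 and 1.04 CPM in the vector libraries and 0.751, 0.586 and 1.15 CPM in the LOC401312 libraries. Vector replicate 1 was far above the rest, vector replicate 2 was intermediate, and vector replicate 3 lay below LOC401312 replicate 3, so the groups overlapped. The change was -2.22 (SE 0.58, adjusted p = 0.0424), just inside the threshold. It was not called with robust edgeR (adjusted p = 0.201) or with no filter on low counts (0.106). It was called after leaving out vector replicate 3 but not after leaving out any of the other 5 (adjusted p up to 0.158). Vector replicate 1 was also the library highest in blood transcripts and in some fibroblast transcripts. The collagen gene COL3A1 held 1549, 193 and 481 counts in the vector libraries against 131, 251 and 263 in the LOC401312 libraries, LUM 347, 25 and 49 counts in the vector libraries against 113, 157 and 168 in the LOC401312 libraries, and DCN 205, 31 and 59 counts in the vector libraries against 75, 118 and 91 in the LOC401312 libraries. The 8 fibroblast and endothelial markers summed to 53.6, 27.6 and 36.4 CPM in vector and 19.1, 21.6 and 22.2 in LOC401312. Not all peaked in vector replicate 1. COL1A1, the 1 called gene of the 8, had 23.4, 21.9 and 24.9 CPM in vector and 13.0, 11.8 and 11.5 in LOC401312. Its change was -0.95 (SE 0.09, adjusted p = 0.000149). PDGFRB was higher in LOC401312 without overlap but not called (1.04, SE 0.42, adjusted p = 0.168). HBA1, an alpha-globin gene, held 674, 9 and 0 counts in the vector libraries against 28, 6 and 22 in the LOC401312 libraries, and PTPRC, the pan-leukocyte CD45 gene, 256, 4 and 0 counts in the vector libraries against 0, 8 and 0 in the LOC401312 libraries. The T cell gene CD3E had 55 counts in vector replicate 1 and 0 in each of the other 5 libraries. The summed level of the 8 blood markers was 68.8, 46.6 and 44.1 CPM in vector and 61.7, 53.8 and 55.1 in LOC401312, mostly the monocyte and macrophage genes CD14 and CD68, which were present in every library; the part of blood and fibroblast transcripts in the TXNIP result was not tested. Without vector replicate 1 the TXNIP change was -1.31 (adjusted p = 0.12).

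**Figure D4:**
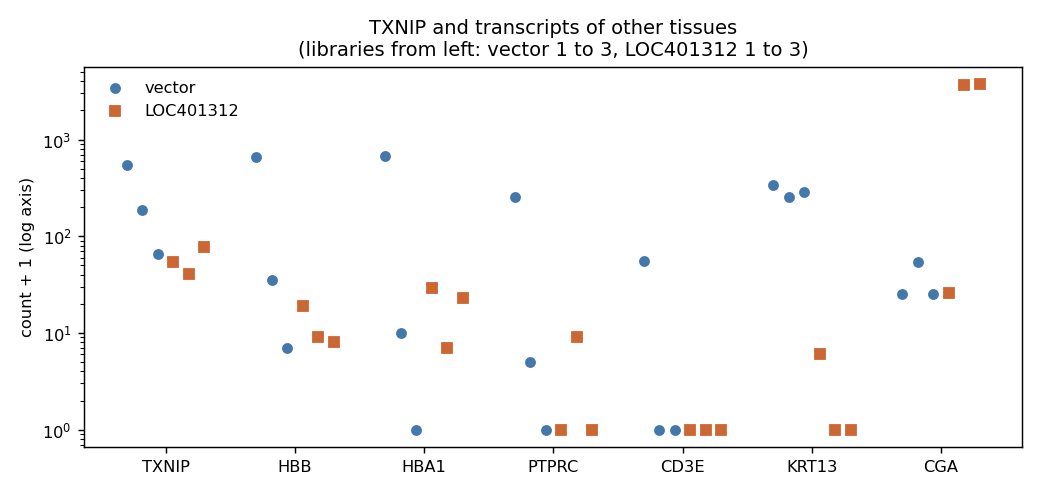
Counts plus 1 (log axis) of TXNIP and of transcripts of other tissues in the 6 libraries, from left vector 1 to 3 (circles) and LOC401312 1 to 3 (squares). TXNIP, HBB, HBA1, PTPRC and CD3E are highest in vector replicate 1, KRT13 is high in all vector libraries, and CGA in LOC401312 replicates 2 and 3.

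None of the 6 peroxiredoxins, the thiol peroxidases recycled by thioredoxin, was called, nor was SRXN1, the sulfiredoxin that repairs their overoxidised form (-0.03, SE 0.04, adjusted p = 0.656). PRDX1, cytosolic and the most abundant of them per length, lay just outside the threshold. It stood at 713, 759.9 and 750.0 CPM in the vector libraries and 693, 668 and 662 CPM in the LOC401312 libraries, with no overlap between groups, and its change was -0.14 (SE 0.04, adjusted p = 0.0506). It passed with DESeq2 (adjusted p = 0.00388) and with RLE scaling (0.0485). With 1 library left out, its adjusted p in edgeR ran from 0.0168 to 0.171. In limma on log2(FPKM + 0.1) PRDX1 was at -0.01 (adjusted p = 0.902), and at -0.12 (0.137) after centring. PRDX6, a peroxidase that works with glutathione instead of thioredoxin, stood at 230.3, 241 and 226 CPM in the vector libraries and 252, 249 and 254 CPM in the LOC401312 libraries, also without overlap but in the other direction (0.11, SE 0.04, adjusted p = 0.107).

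The mitochondrial PRDX3 was at -0.02, PRDX4 of the endoplasmic reticulum at 0.02 and PRDX5 at -0.16, with adjusted p of 0.195 or more. PRDX2, abundant in red blood cells, was low in this line, at 4.15, 2.22 and 1.74 CPM in the vector libraries and 1.96, 1.6 and 2.17 CPM in the LOC401312 libraries. Its highest value was in vector replicate 1, the library with globin transcripts, and its groups overlapped (-0.51, SE 0.31, adjusted p = 0.394). Of 18 other tested genes of the thioredoxin network, 2 rose and 1 fell, against 4.13% and 4.58% of all features tested. The sestrin SESN3 rose from 2.67 ± 0.267 CPM in vector to 4.75 ± 0.659 in LOC401312 (SD, n = 3 per group), a change of 0.83 (SE 0.17, adjusted p = 0.0139), the methionine sulfoxide reductase MSRB3, on chromosome 12, by 0.22 (SE 0.05, adjusted p = 0.0239), and the ribonucleotide reductase subunit RRM2, on chromosome 2, fell by 0.17 (SE 0.04, adjusted p = 0.0269). With chromosome medians removed, MSRB3 was at 0.10 (adjusted p = 0.282) and RRM2 at 0.06 (0.402). Leaving out 1 library ended the calls of SESN3 (vector replicate 3 and LOC401312 replicates 1 and 3, 0.0693 at most), and of MSRB3 and RRM2 (each library except vector replicate 1, up to 0.107 and 0.102).

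Set side by side, the pentose phosphate and NADPH branch, with only 4 genes, held the largest share of falls. Of all features tested, 4.58% were called lower, and 7.71% of those with a mean of at least 10 CPM. In the pentose phosphate and NADPH branch 3 of 4 fell, with a median log2 change of -0.25. The glutathione branch (supply, peroxidases and transferases) had 4 falls among 19 and a median of -0.06, and the thioredoxin branch (thioredoxins, peroxiredoxins and sulfiredoxin) 2 falls and 1 rise among 12 and a median of -0.02. With chromosome medians removed, the 3 branches held, in that order, 3, 4 and 0 falls. No test was made between branches. By library, the median deviation of the pentose phosphate and NADPH genes from their mean over libraries was 0.05, 0.18 and 0.14 in vector and -0.09, -0.11 and -0.16 in LOC401312, so the groups were apart. For the glutathione branch it was 0.02, 0.05 and 0.02 against -0.02, -0.02 and -0.06, apart by less. For the thioredoxin branch it was -0.05, 0.03 and -0.01 against 0.00, -0.04 and 0.00, with overlap.

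In the deposited FPKM values, where the shift over genes with a mean of at least 5 FPKM was 0.109, the branch medians were -0.12, 0.07 and 0.10, in the same order. The glutathione and thioredoxin medians thus turned positive there. After centring each library they were -0.04 and -0.01, and that of the pentose phosphate and NADPH branch -0.23. Summed FPKM over the 4 pentose phosphate and NADPH genes was 638, 640.4 and 621 in vector and 604, 581 and 564 in LOC401312, with no overlap even in these values. The sum over the 5 glutathione supply genes was 157, 146 and 139.7 against 149, 146 and 148, with overlap.

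**Figure D5:**
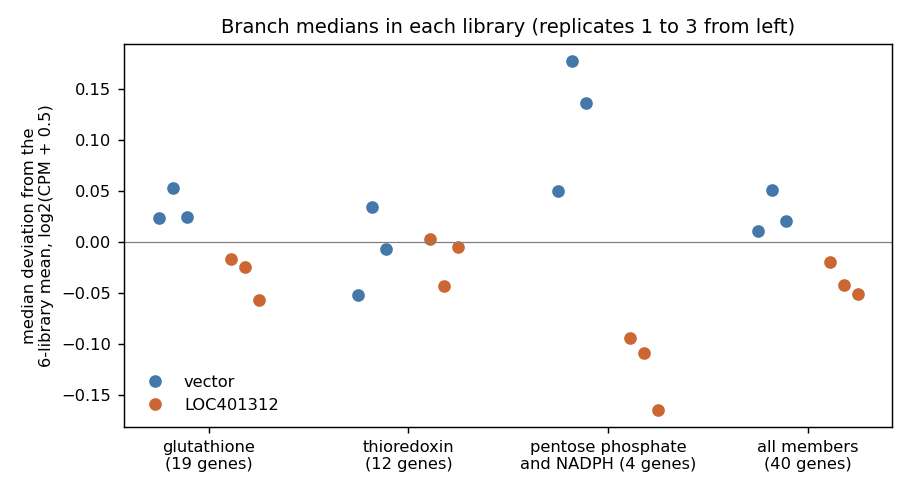
Median deviation of each branch's genes from their mean over the 6 libraries, on the log2(CPM + 0.5) scale, for vector and LOC401312 libraries. The pentose phosphate and NADPH genes show the widest gap between groups (lowest vector library at 0.05, highest LOC401312 library at -0.09), and the thioredoxin branch shows overlap.

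The remaining members act on quinones, superoxide and hydrogen peroxide. NQO1, which reduces quinones with NADPH (ENSG00000181019; chromosome 16, 69706996 to 69726668, minus strand), stood at 1558, 1675 and 1669 CPM in the vector libraries and 1371, 1400.4 and 1378 CPM in the LOC401312 libraries, a fall of 0.24 (SE 0.04, adjusted p = 0.00288) that held on leaving out any library. OSGIN1, an oxidative stress-induced growth inhibitor, fell from 48.9 ± 3.11 CPM in vector to 39.5 ± 1.81 in LOC401312 (SD, n = 3 per group), a change of -0.31 (SE 0.06, adjusted p = 0.0116), with library values of 45.6, 51.8 and 49.2 CPM in the vector libraries and 38.8, 41.5 and 38.1 CPM in the LOC401312 libraries. OSGIN1 overlaps the MLYCD entry on the same strand, whose counts came to 30.9% of its own, and the division of reads between the 2 is uncertain. Its groups did not overlap, and its call was lost without vector replicate 3 or LOC401312 replicate 1 or 3 (adjusted p up to 0.0625).

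SOD2, the manganese superoxide dismutase of mitochondria (ENSG00000112096; chromosome 6, 159669069 to 159727353, minus strand), moved the other way, with 231, 231 and 213 CPM in the vector libraries and 337, 321 and 314 CPM in the LOC401312 libraries. It rose by 0.53 (SE 0.05, adjusted p = 0.00012), a 1.44-fold level, and the call held on leaving out any library. The cytosolic SOD1 stood at 163, 181 and 169 CPM in the vector libraries and 180.2, 174 and 159 CPM in the LOC401312 libraries, with overlapping groups (-0.00, SE 0.06, adjusted p = 0.99). The ratio of SOD2 to SOD1 in FPKM went from 0.143 ± 0.00946 to 0.207 ± 0.00763 (SD, n = 3 each), a difference of 0.53 on the log2 scale (exact two-sided permutation p = 0.1, adjusted p = 0.225). SOD2 overlaps WTAP on the opposite strand, whose counts came to 24.9% of its own, and reads of the 2 genes may not be told apart. Catalase, CAT, was at 0.11 (SE 0.04, adjusted p = 0.172), with groups that did not overlap.

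Of 15 other tested genes of superoxide and peroxide handling, 3 fell and none rose, against 4.58% and 4.13% of all features tested. The peroxidasin PXDN fell from 38.4 ± 1.56 CPM in vector to 24.1 ± 0.275 in LOC401312 (SD, n = 3 per group) (-0.67, SE 0.06, adjusted p = 0.00012), MPV17 by 0.24 (SE 0.05, adjusted p = 0.018) and the quinone reductase NQO2 by 0.23 (SE 0.06, adjusted p = 0.0315). PXDN and MPV17 lie on chromosome 2 and were at -0.44 (adjusted p = 0.00171) and -0.01 (0.952) with its median removed. MPV17 lost its call without vector replicates 2 and 3 and LOC401312 replicates 1 and 2, each in turn (0.0949 at most), and NQO2 on omitting vector replicates 2 and 3 and LOC401312 replicates 2 and 3, each in turn (0.137 at most).

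The regulators and other targets of NRF2 were read beside the members. NFE2L2, which encodes NRF2, fell from 76.4 ± 1.51 CPM in vector to 62.8 ± 3.89 in LOC401312 (SD, n = 3 per group), a change of -0.28 (SE 0.05, adjusted p = 0.00884). CUL3, the ubiquitin ligase scaffold that works with KEAP1 to degrade NRF2, fell by 0.30 (SE 0.05, adjusted p = 0.0042). The 2 genes are on chromosome 2. After removal of the chromosome median, NFE2L2 was at -0.06 (adjusted p = 0.605) and CUL3 at -0.07 (0.449). KEAP1 itself was at -0.09 (SE 0.08, adjusted p = 0.553). NFE2L3, a relative of NRF2, rose by 0.55 (SE 0.09, adjusted p = 0.00385), and BACH1, a repressor at the same elements that was named after its value was seen, by 0.35 (SE 0.08, adjusted p = 0.0254). BACH1 lost its call on leaving out each library except vector replicate 1 (up to 0.101). In all, 2 of 13 regulators fell and 2 rose, against 4.58% and 4.13% of all features tested.

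Among 24 other tested NRF2 targets, 12 fell and none rose, with a median of -0.16. Of all features tested, 4.58% were called lower and 4.13% higher. At a mean of at least 10 CPM the shares were 7.71% and 5.83%. The list was chosen with earlier results of these data known, so its count is not independent support for a shared change of NRF2 targets. HMOX1, haem oxygenase, stood at 310.3, 345 and 356 CPM in the vector libraries and 185, 175 and 181 CPM in the LOC401312 libraries, a change of -0.90 (SE 0.05, adjusted p = 1.47e-05). The aldo-keto reductases AKR1B10 and AKR1C2 changed by -0.45 (SE 0.03, adjusted p = 5.87e-05) and -0.42 (SE 0.03, adjusted p = 8.12e-05). The groups did not overlap for any of the 3. AKR1B1, another aldo-keto reductase, was higher without overlap but not called (0.17, SE 0.05, adjusted p = 0.0846). Of the 24 targets, 16 had a negative change and 8 a positive one. The groups did not overlap for 12 that were lower and 3 that were higher, against 13.9% and 14% of all features.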

How the data were processed

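Total RNA of 6 A549 libraries, 3 per group, was grouped by sample title. The authors deposited raw counts, whole numbers per feature with no normalization, and FPKM scaled by the authors for length and library total, per the file headers. The tools named were cutadapt 1.9 and FastQC, with build GRCh38, according to the submitters' processing notes. Aligner, counter, annotation release and strandedness: not given in the sources used here. Counts were tested with edgeR 4.0.16 (quasi-likelihood, TMM, filterByExpr; R 4.3.3) over all 19620 features that passed the filter, with Benjamini-Hochberg adjustment and a threshold of 0.05. Each standard error was obtained as the absolute log2 change over the root of its F statistic. CPM use TMM-adjusted library sizes. Replicates of a group were not copies of 1 library (chi-square over degrees of freedom, 13.68 to 22.86), and each counted as 1 sample. On simulated counts for these libraries (19133 features), edgeR recovered 80% of 100 changes of 0.5 and 100% of 100 changes of 1 on the log2 scale. The changed features were drawn from the more abundant ones. Changes smaller than 0.5, as most falls of the members were, were not simulated, so their recovery is unknown.

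Alternatives were DESeq2 1.42.0, limma 3.58.1 on log2(FPKM + 0.1) or log2(FPKM + 1), other scalings, filters and thresholds, chromosome medians removed (medians over genes averaging 4 CPM or more), the replicate number as a block, and libraries left out. Leaving out vector replicate 1 with LOC401312 replicates 2 and 3, and the background at 10 CPM, were added after seeing the data. Members and lists were chosen with earlier results of these data known. Named were all 40 members, and of each other list up to 3 called genes with the smallest p; a few others were named after their values were seen. The strand setting being unknown, counts of members that overlap another entry are uncertain; 1 such overlap is not reported here.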

Additional observations from a re-analysis of the deposited data

How the results depend on the processing

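The direction of all 13 called members held in each setting in which they were fitted. Of 834 results for single members under the alternatives, 724 stayed on their side of the threshold, 85 lost the call and 25 gained one. No called member reversed, but members that were not called could change sign. GSR, at -0.08, was at 0.05 in limma on log2(FPKM + 0.1). MGST1, at 0.05, was at -0.07 with chromosome medians removed. Among the other named genes, RRM2 reversed with chromosome medians removed (0.0617). The number of features called, 1710, was 1088 with the replicate block, 738 at an adjusted p of 0.01, 175 without LOC401312 replicates 2 and 3, 788 without vector replicate 1 as well, and 832 to 2005 with 1 library left out. Members called lower, 11, numbered 6 at 0.01, 1 without LOC401312 replicates 2 and 3, and 7 to 12 with 1 library left out. In limma they numbered 1 on log2(FPKM + 0.1), 1 on log2(FPKM + 1) and 2 among features with a mean of at least 5 FPKM. Members called higher, 2, numbered 7, 7 and 9 in those 3 settings, and 1 with centred FPKM, no filter, the replicate block, chromosome medians removed, a threshold of 0.01, and either set of left-out libraries. With 1 library left out they numbered 1 to 2.

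The members' median was -0.0283 with total-count scaling, -0.033 with centred FPKM, -0.0723 with chromosome medians removed, -0.0747 without LOC401312 replicates 2 and 3, and -0.0787 to -0.0362 with 1 library left out. It reversed in the uncentred FPKM settings, to 0.0735, 0.0705 and 0.0735. The glutathione median was -0.0339 with total-count scaling, -0.0375 with centred FPKM and -0.0783 to -0.0307 with 1 library left out, and reversed in uncentred FPKM to 0.0689, 0.0645 and 0.0602. The thioredoxin median was 0.10, 0.10 and 0.11 in those settings and the pentose phosphate and NADPH median -0.12 in each. Centring subtracts from each library its own median log2 FPKM; the cause of the upward FPKM shift was not tested. Settings with a single LOC401312 library take their spread from the vector libraries.

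Same-numbered libraries did not deviate together (correlations -0.154, -0.0318 and -0.0566). Libraries of different number had correlations from -0.102 to 0.148. These values gave no sign that the numbers pair the samples, but with 3 libraries per group they cannot exclude it. With the replicate block, 8 members were lower and 1 higher.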
